A study of Homo sapiens with 24 samples.

Results

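The ceramide and sphingosine enzymes described here are 10 genes taken by name from a gene count table of 58825 genes: ACER2, ACER3, ASAH1, SPHK1, SPHK2, SGPL1, CERS2, CERS5, CERS6 and SGMS1. All 10 had a row and passed the filter on low counts. ACER2 was chosen because it was already known to be higher after Nutlin-3a in the non-targeting control lines of these data, and the other 9 enzymes were taken with it for their place in the same pathway. Any control-line response of a member is therefore given as a description with no test.

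Polyadenylated RNA was sequenced from SKHEP1 cells, a human cell line established from a liver cancer, which the labels describe as endothelial. The cells carry CRISPR interference, in which a catalytically dead Cas9 silences a promoter chosen by a guide RNA. There were 6 lines. Non-targeting guides were used in 2 of them (NTC1 and NTC2), and in the other 4 the guides, named sg2, sg4, sg5 and sg6, target PURPL, a p53-induced long noncoding RNA. Each line was treated for 6 h with 10 µM Nutlin-3a or with DMSO alone, and each of the 12 groups has 2 harvests, numbered 1 and 3 in the labels, which makes 24 libraries. All lines share the CRISPR interference machinery and the cell line of origin, and each guide is represented by 1 established line.

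Ceramide is the branch point of sphingolipid metabolism. Ceramidases cut it into a fatty acid and sphingosine, sphingosine kinases turn sphingosine into the signalling lipid sphingosine 1-phosphate (S1P), and S1P lyase removes S1P for good. Ceramide synthases work the other way and join sphingosine or its saturated precursor to a fatty acid, and sphingomyelin synthases draw on ceramide for membrane sphingomyelin. Nutlin-3a frees p53 from its inhibitor MDM2, and ACER2, the Golgi alkaline ceramidase, is a known p53 target gene.

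ACER2 lies on the plus strand of chromosome 9, from 19409059 to 19452020 (GRCh38, GENCODE 29). The 250 bases before its RefSeq start, chr9:19408759-19409008 on the plus strand of GRCh38.p14, are shown because ACER2 is the member with the largest response. Capitals mark the GC box, GGGCGG or CCGCCC on the other strand.

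ACER2 promoter: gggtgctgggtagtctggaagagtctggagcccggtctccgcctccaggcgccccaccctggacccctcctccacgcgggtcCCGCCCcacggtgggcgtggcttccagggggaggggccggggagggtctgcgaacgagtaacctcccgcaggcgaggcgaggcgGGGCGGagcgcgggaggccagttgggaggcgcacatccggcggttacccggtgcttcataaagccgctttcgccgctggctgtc

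This window holds 2 GC boxes and no match to the p53 consensus decamer, which was searched on both strands (the consensus reads the same on each). Of 35116 RefSeq promoter windows of the same 250 bases, 42.6% held a GC box and 5.57% held the decamer. RefSeq windows were found for 8 of the 10 members, 11 windows in all, and SGMS1 and 1 of the 3 SPHK1 windows held 1 decamer each. A match is a description of letters, not of binding, and the rest of each gene was not searched.

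The treatment and the guides were checked first. The p53 targets CDKN1A, MDM2 and BTG2 were higher in every Nutlin-3a library than in any DMSO library: CDKN1A ranged from 71.7 to 110 CPM (counts per M counts of the library, with TMM scaling) in DMSO and from 934 to 2970 CPM in Nutlin-3a. PURPL was at 7.4 to 10.1 CPM in the control lines with DMSO and at 0.273 to 0.868 CPM in the guide lines. Libraries held 66.4 to 92.1 M counts each (median 74.2 M). Against the endothelial label, only 2 of 9 endothelial markers passed the filter (VWF and ESAM, at most 0.662 CPM), and PECAM1, CDH5, KDR and ERG were at or near 0 (highest 0.059 CPM). Their sum was 0.38 to 0.723 CPM in DMSO and 0.366 to 0.865 CPM in Nutlin-3a. Of 8 hepatocyte markers 2 passed (SERPINA1, 0.64 to 4.08 CPM, and AFP, 0.836 to 1.62 CPM), and ALB was near 0 (highest 0.0142 CPM). Of 6 leukocyte markers 2 passed, CD14 at no more than 0.708 CPM and CD68, a lysosomal protein, at 15.9 to 77.8 CPM, and PTPRC was at no more than 0.13 CPM. All 8 fibroblast and mural markers passed, with a sum of 3740 to 4740 CPM in DMSO and 3840 to 4490 CPM in Nutlin-3a, and so did 5 of 6 epithelial markers (1360 to 2550 and 1750 to 2610 CPM). In DMSO, VIM held most of the first sum (3570 to 4530 CPM). RGS5 was at 111 to 204, THY1 at 31.1 to 50.6 and ACTA2 at 19.1 to 31.6 CPM, but COL1A1, COL1A2, COL3A1 and PDGFRB at no more than 1.22 CPM. KRT8 (442 to 894 CPM) and KRT18 (914 to 1680 CPM) held most of the second sum. KRT19, ESRP1, EPCAM and CDH1 were at no more than 10.4 CPM. The Nutlin-3a sums leave out 1 library, described next, which held 1.12 CPM of endothelial, 5220 of fibroblast and mural and 9000 of epithelial markers. One library stood apart, harvest 1 of sg2 with Nutlin-3a. Its levels rose with transcript GC content by 1.43 log2 units per 10 percentage points of GC, against -0.197 to 0.32 in the other 23 libraries, so responses are given with and without this divergent library.

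ACER2 was low in DMSO and several times higher in Nutlin-3a in all 6 lines. In DMSO, harvests 1 and 3 were at 1.69 and 0.994 CPM in NTC1, 2.07 and 1.99 in NTC2, 1.98 and 2.39 in sg2, 2.25 and 2 in sg4, 2.13 and 2.33 in sg5, and 2.22 and 2.24 in sg6. In Nutlin-3a they were at 13.4 and 14.9 CPM in NTC1, 14.2 and 15.2 in NTC2, 12.4 and 16.4 in sg2, 13.9 and 16.1 in sg4, 14.5 and 14.7 in sg5, and 14.8 and 13.8 in sg6. The 2 treatments did not overlap, and NTC1 with DMSO held the lowest values of the set. Across all tested genes, 3.14% had every Nutlin-3a library above every DMSO library. These libraries include the control lines, by whose response ACER2 was chosen, so its lack of overlap is a description. In RNA of whole cultures, more cells expressing a gene and more RNA per cell cannot be told apart.

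The fold of the mean ACER2 level by line was 10.5 in NTC1, 7.24 in NTC2, 6.62 in sg2, 7.06 in sg4, 6.55 in sg5 and 6.41 in sg6. The 5 lines other than NTC1 lay close together. NTC1 had the lowest mean in both treatments, 1.34 CPM in DMSO, where the other lines were at 2.03 to 2.23 CPM, and 14.2 CPM in Nutlin-3a, where they were at 14.3 to 15 CPM. In the guide lines the response was 2.73 on the log2 scale (SE 0.11, 6.65-fold, adjusted p = 2.14e-10, edgeR's quasi-likelihood test with Benjamini-Hochberg adjustment). Whether results of the guide lines were also known when ACER2 was chosen is not recorded, so this p-value is not an independent check of that choice. For display, a line's harvests with the same number were set against each other. Whether the numbers pair the samples was not settled, so counts over these pairs are a description. ACER2 was higher in 12 of 12, by 2.63 to 3.91. In the control lines the fitted value was 3.13 (SE 0.16, 8.74-fold), as a description. In that contrast 2.86% of genes were at least 2-fold higher (2.97% without the divergent library), and ACER2 was the 1 of the 10 members that was.

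**Figure D1:**
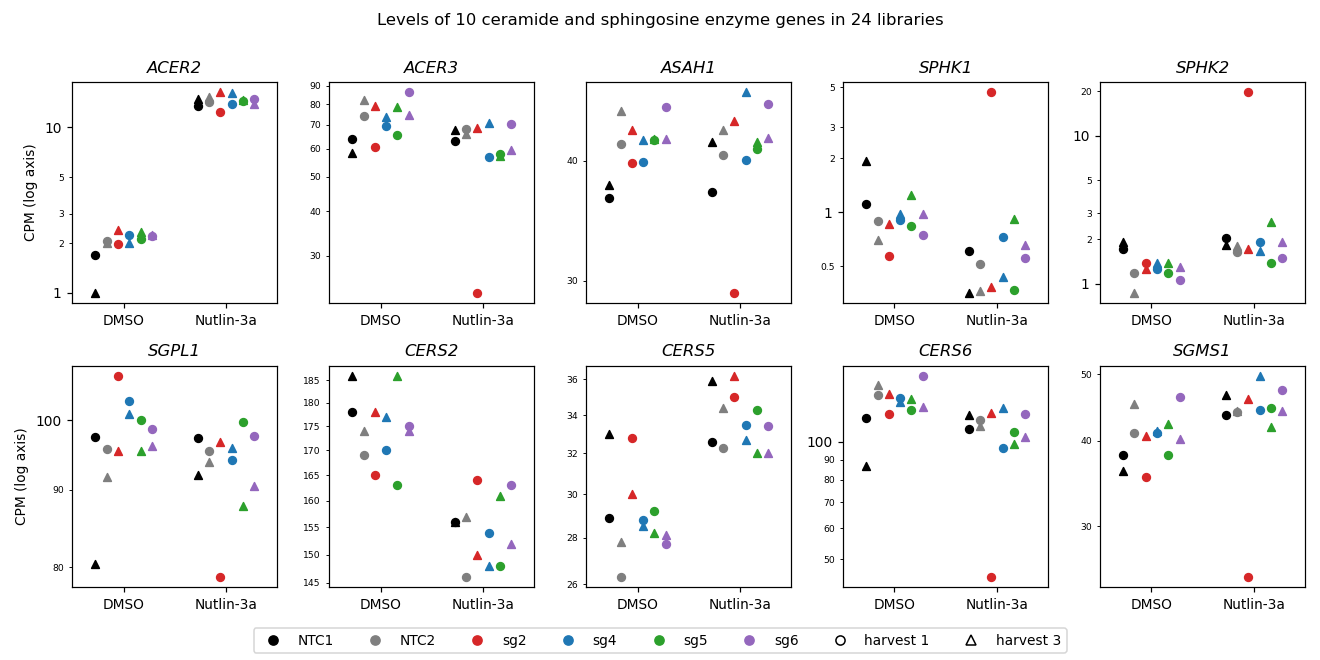
Level of each of the 10 genes in every library, in CPM on a log axis, by treatment, with colours for the 6 lines and symbols for the harvests. ACER2 in Nutlin-3a sits between 12.4 and 16.4 CPM, above every DMSO library (0.994 to 2.39 CPM), while the red circle of sg2 Nutlin-3a harvest 1 lies apart for SPHK1, SPHK2, ACER3, ASAH1, CERS6 and SGMS1.

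With all libraries, 4 of the 10 members passed an adjusted p of 0.05 in the guide lines, 3 higher (ACER2, SPHK2 and CERS5) and 1 lower (CERS2). Of the 16371 genes tested, 34.2% passed, 17.7% higher and 16.5% lower, so the members' share is near the background. Without the divergent library 8 of the 10 passed, 4 higher (ACER2, SPHK2, CERS5 and SGMS1) and 4 lower (SPHK1, ACER3, CERS6 and CERS2), against 38.5% of 16697 genes (15.9% higher, 22.7% lower). With the sum of each line's harvests and a term for each line, 4 members also passed, but 1 was higher (ACER2) and 3 were lower. The 3 were CERS2, ACER3 (-0.39, adjusted p = 0.0439, edgeR) and CERS6 (-0.4, adjusted p = 0.0487). The share of all genes passing in that fit is not given here, so this count is a description. The median log2 change of the members was -0.02, beside 0.05 over all genes tested, and -0.03 beside 0 without that library. ACER2 was the member with by far the largest change, and each of the other 7 that passed without the divergent library changed by less than 1 log2 unit.

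The other 2 ceramidases did not share the ACER2 pattern. ACER3, an alkaline ceramidase of the endoplasmic reticulum and Golgi that prefers unsaturated ceramides, ranged from 58.2 to 86.6 CPM in DMSO (median 73.7, n = 12). In Nutlin-3a it ranged from 56.9 to 70.6 CPM (median 65.8) in 11 libraries and stood at 23.5 CPM in the divergent one. The treatments overlapped. With all libraries the guide-line change of -0.35 (SE 0.16, adjusted p = 0.0942) did not pass, and without the divergent library ACER3 fell by 0.22 (SE 0.07, adjusted p = 0.0172, edgeR), 1.16-fold. With the GC trend of each library removed as well, the change of -0.09 (adjusted p = 0.165) did not pass. ACER3 was lower in 7 of 7 remaining guide-line pairs, while the control-line pairs ranged from -0.32 to 0.22.

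ASAH1, the lysosomal acid ceramidase, stayed between 36.6 and 45.5 CPM in DMSO (median 42) and between 37.1 and 47.2 CPM (median 41.8) in the 11 Nutlin-3a libraries, with 29.1 CPM in the divergent one. The ranges overlapped almost wholly. Its guide-line change was -0.03 (SE 0.08, adjusted p = 0.803, edgeR) and 0.03 (SE 0.05, adjusted p = 0.678) without that library. With the GC trend of each library removed, the value was 0.24 (adjusted p = 0.00865).

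The sphingosine kinases, which make S1P, were the 2 lowest members per kilobase. SPHK1, the mainly cytosolic kinase, ranged from 0.572 to 1.94 CPM in DMSO (median 0.896, n = 12), where NTC1 harvest 3 was highest. In the 11 Nutlin-3a libraries it ranged from 0.352 to 0.918 CPM (median 0.515), with 4.72 CPM in the divergent library. It was lower after Nutlin-3a in 11 of 11 pairs without that library, with log2 changes between -2.46 and -0.32, although the treatments overlapped.

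The SPHK1 result turned on that library. With all libraries the guide-line change was -0.02 (SE 0.36, adjusted p = 0.977, edgeR), and without it SPHK1 fell by 0.71 (SE 0.23, adjusted p = 0.0202), 1.64-fold. With the GC trend removed and all libraries kept, SPHK1 fell by 0.88 (adjusted p = 5.69e-05). The control lines gave -1.27 (SE 0.54), as a description. These levels rest on 26 to 180 counts per library outside the divergent one, which held 413.

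SPHK2, the kinase found in the nucleus and mitochondria, ranged from 0.865 to 1.91 CPM in DMSO (median 1.29) and from 1.39 to 2.63 CPM (median 1.79) in 11 Nutlin-3a libraries. The divergent library stood at 19.8 CPM. SPHK2 rose by 1.16 (SE 0.33, 2.23-fold, adjusted p = 0.016, edgeR) with all libraries and by 0.49 (SE 0.13, 1.4-fold, adjusted p = 0.00849) without the divergent one. Without harvest 3 of sg5 with Nutlin-3a, the next highest library, the change of 1 (adjusted p = 0.0518) missed the threshold, and so did the change of 1.12 (adjusted p = 0.123) over line sums. SPHK2 was higher in 10 of 11 pairs without the divergent library, and NTC1 harvest 3 gave -0.07. Exons of the genes DBP and RPL18 on the opposite strand cover 11% and 4.1% of SPHK2 exon bases. The strand setting of the counting is not given in the sources used here, and RPL18, a ribosomal protein gene, was at 137 to 277 CPM outside the divergent library and at 649 CPM in it. Its part in the SPHK2 values was not tested.

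**Figure D2:**
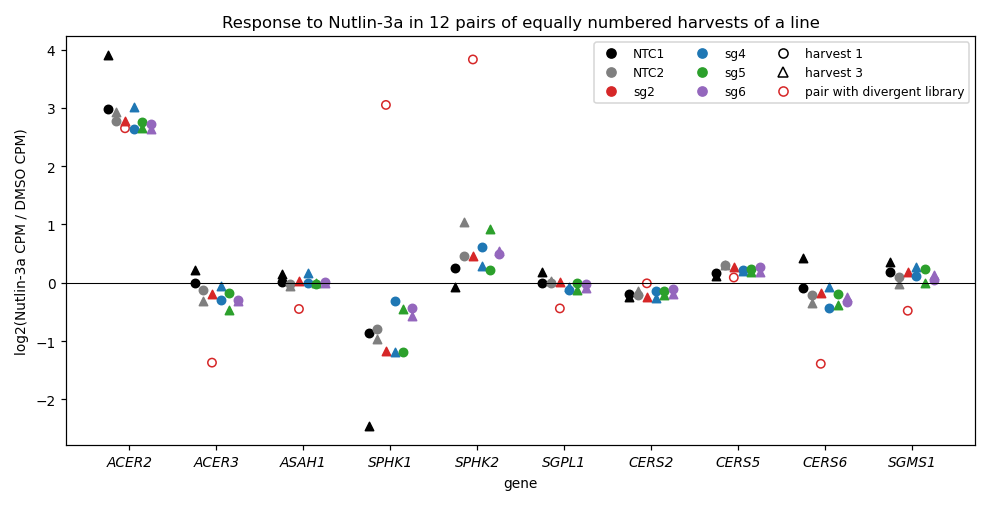
Log2 ratio of Nutlin-3a to DMSO CPM for each gene in 12 pairs of equally numbered harvests of a line, with the open circle for the pair that holds the divergent library. ACER2 lies between 2.63 and 3.91 in all 12 pairs, SPHK1 is below 0 in the other 11 pairs, and CERS2 (below 0) and CERS5 (above 0) lie on 1 side in all 12.

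SGPL1, the S1P lyase, was among the most abundant members. It ranged from 80.4 to 107 CPM in DMSO (median 96.8) and from 87.8 to 99.7 CPM (median 95.4) in 11 Nutlin-3a libraries, with 78.8 CPM in the divergent library. The lowest DMSO value was NTC1 harvest 3, and the treatments overlapped. Its guide-line change was -0.1 (SE 0.06, adjusted p = 0.174, edgeR) and -0.08 (SE 0.05, adjusted p = 0.172) without the divergent library. When harvest 3 of sg2 with Nutlin-3a was left out instead, so that the divergent library alone stood for that group, the value was -0.16 (adjusted p = 0.00598).

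The 3 ceramide synthases moved by small amounts and not in 1 direction. CERS2, which makes ceramides with very long acyl chains, ranged from 163 to 186 CPM in DMSO (median 174) and from 146 to 164 CPM in Nutlin-3a (median 155, n = 12 each). It was lower in 12 of 12 pairs, with log2 changes between -0.26 and -0.01. CERS2 fell by 0.16 (SE 0.05, 1.12-fold, adjusted p = 0.0194, edgeR) with all libraries and by 0.19 (SE 0.04, 1.14-fold, adjusted p = 0.00116) without the divergent one. Without it the treatments no longer overlapped, though the highest Nutlin-3a and the lowest DMSO value both round to 163 CPM. In 6.92% of genes every Nutlin-3a library was then below every DMSO library. The SETDB1 gene on the opposite strand covers 20.4% of CERS2 exon bases and was at 30.4 to 36.9 CPM outside the divergent library. Its part in the CERS2 values was not tested.

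CERS5, which prefers palmitoyl chains, ranged from 26.3 to 33 CPM in DMSO (median 28.6) and from 32 to 36.2 CPM in Nutlin-3a (median 33.4). Only NTC1 harvest 3 (33 CPM) and sg2 harvest 1 (32.8 CPM) of the DMSO libraries reached the Nutlin-3a range. CERS5 rose by 0.21 (SE 0.05, 1.15-fold, adjusted p = 0.00563, edgeR), by 0.2 without the divergent library (SE 0.04, adjusted p = 0.00201), and was higher in 12 of 12 pairs. With line sums in place of single harvests, the change of 0.18 (adjusted p = 0.0649) did not pass.

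CERS6, the other palmitoyl-preferring synthase, ranged from 86.8 to 148 CPM in DMSO (median 128) and from 96.5 to 122 CPM (median 110) in 11 Nutlin-3a libraries, with 45 CPM in the divergent one. Its lowest DMSO value was again NTC1 harvest 3. With all libraries the change was -0.36 (SE 0.15, adjusted p = 0.067, edgeR), and without the divergent library CERS6 fell by 0.24 (SE 0.07, 1.18-fold, adjusted p = 0.00847) and was lower in 7 of 7 guide-line pairs. The control lines gave -0.06 (SE 0.21), and -0.1 (SE 0.09) without the divergent library, with pairs from -0.34 to 0.43, as a description. The antisense gene CERS6-AS1 covers 41.4% of CERS6 exon bases but was at no more than 0.11 CPM in any library.

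SGMS1, the Golgi sphingomyelin synthase that consumes ceramide, ranged from 35.4 to 46.3 CPM in DMSO (median 40.9) and from 41.9 to 49.8 CPM (median 44.3) in 11 Nutlin-3a libraries, with 25.3 CPM in the divergent one. The treatments overlapped. The change was 0.07 (SE 0.09, adjusted p = 0.568, edgeR) over all libraries. Once the divergent library was left out SGMS1 rose by 0.15 (SE 0.05, 1.11-fold, adjusted p = 0.0207), higher in 6 of 7 guide-line pairs. With the GC trend removed and all libraries kept, SGMS1 rose by 0.22 (adjusted p = 0.000275). Over line sums the change of 0.04 (adjusted p = 0.729) did not pass. The antisense gene SGMS1-AS1 covers 3.2% of SGMS1 exon bases. Its median was 2.35 CPM in DMSO and 3.55 CPM in 11 Nutlin-3a libraries, and its part in the SGMS1 values was not tested.

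In the divergent library the members' levels ran with the GC content of their transcripts. The SPHK1 and SPHK2 transcripts have 65.5% and 63.2% GC and stood at 9.16 and 11.1 times the median of the other 11 Nutlin-3a libraries. ACER3 (38.7% GC) stood at 0.358 of that median, CERS6 (41.6%) at 0.409, SGMS1 (42.6%) at 0.572 and ASAH1 (37.3%) at 0.695. The 4 members between 47.2% and 53.8% GC were closest to 1: SGPL1 at 0.826, ACER2 at 0.843, CERS5 at 1.05 and CERS2 at 1.07. Without that library the guide-line response of ACER2 was 2.77 (SE 0.09, 6.8-fold).

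**Figure D3:**
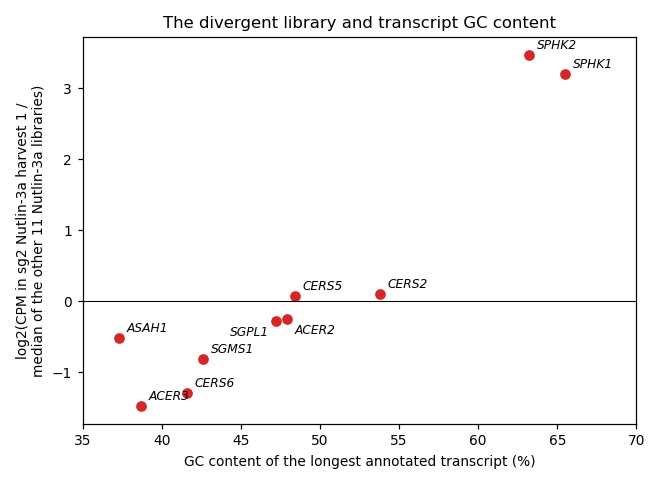
Log2 ratio of each gene's CPM in harvest 1 of sg2 with Nutlin-3a to the median of the other 11 Nutlin-3a libraries, against the GC content of its longest annotated transcript in percent. SPHK1 and SPHK2, at 65.5% and 63.2% GC, lie more than 3 log2 units above 0, and ACER3, ASAH1, CERS6 and SGMS1, the 4 genes of lowest GC content, lie below 0.

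Levels of different genes were compared as CPM per kilobase of merged exons. In DMSO the medians were 37.5 for CERS2, 17.7 for CERS6, 12.9 for SGPL1, 8.73 for ACER3, 6.36 for SGMS1, 4.24 for CERS5, 2.73 for ASAH1, 0.937 for ACER2, 0.215 for SPHK2 and 0.203 for SPHK1. CERS2 was above all others in every DMSO library. The ranges of SPHK2 (0.144 to 0.318) and SPHK1 (0.129 to 0.44) overlapped, so their order does not exceed their spread. In Nutlin-3a the ACER2 median was 6.52 per kilobase, close to SGMS1 (6.89) and ACER3 (7.63) and above CERS5 (4.96) and ASAH1 (2.72). That change of place from 8 to 6 holds for merged exons. Per kilobase of the longest transcript or of coding sequence ACER2 stayed at place 8 in both treatments.

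No difference between the PURPL guide lines and the control lines was called for the enzymes, in a test that called few genes of any kind. Lines were the replicates here, 4 guide lines against 2 control lines, each the sum of its 2 harvests. In DMSO 0 of 10 members passed an adjusted p of 0.05 (edgeR; 0.00601% of 16648 genes passed, and 0 members had an unadjusted p under 0.05). DESeq2 also gave 0 of 10. The 1 gene called was PURPL, the target, at -3.92 (SE 0.29, adjusted p = 0.0127). In Nutlin-3a 0 of 10 passed (0% of 16900 genes; 0.00596% without the divergent library), with 0 at an unadjusted p under 0.05 and 0 by DESeq2. Here even PURPL, at 29.7 to 38.5 CPM in control and 0.742 to 2.9 CPM in guide lines, did not pass with all libraries (-4.16, SE 0.34, adjusted p = 0.432, edgeR), and it was the 1 gene called without the divergent library (-4.06, adjusted p = 4.88e-05).

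ACER2 in DMSO was at 0.994 to 2.07 CPM in the control lines (1.69 ± 0.489, SD, n = 4 libraries) and at 1.98 to 2.39 CPM in the guide lines (2.19 ± 0.147, n = 8), and the ranges overlapped. The difference was 0.39 on the log2 scale (SE 0.18, adjusted p = 0.825, edgeR on line sums). It was 0.22 (SE 0.12) without NTC1 harvest 3 and 0.11 (SE 0.13) without the NTC1 line. In Nutlin-3a the ACER2 difference was 0.01 (SE 0.09, adjusted p = 0.955), with 14.4 ± 0.81 CPM (n = 4) in control and 14.6 ± 1.28 CPM (n = 8) in guide lines. The DMSO test on NTC1 alone, with NTC2 left out, called 7 of 10 members (5 higher, 2 lower) but also 36.8% of all 17167 genes, with ACER2 at 0.74 (SE 0.14). NTC1 harvest 3 in DMSO held the lowest ACER2, ACER3, SGPL1 and CERS6 and the highest SPHK1 and SPHK2 of the 12 DMSO libraries. Its GC slope of 0.286 was the third highest of the 24.

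**Figure D4:**
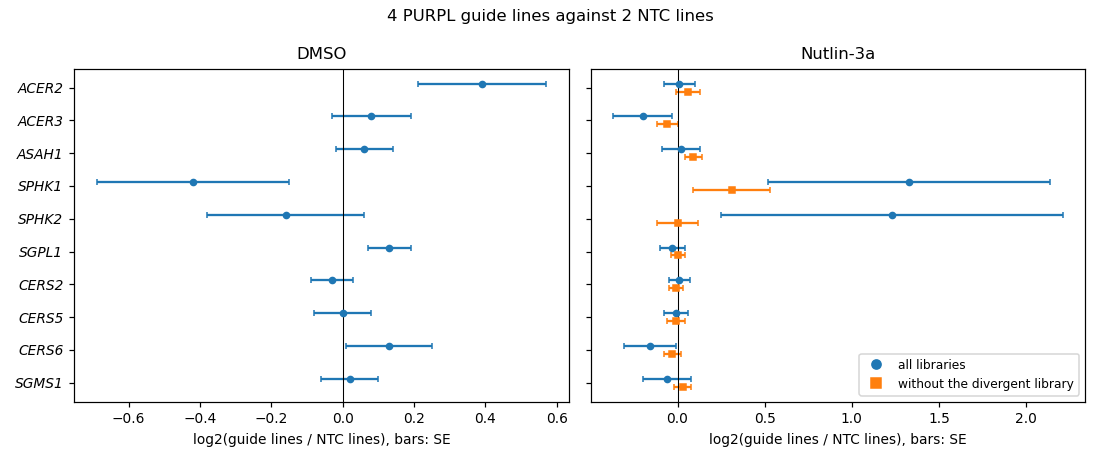
Log2 difference between the 4 PURPL guide lines and the 2 control lines for each gene in DMSO (left) and Nutlin-3a (right), with standard errors as bars, from sums of the 2 harvests of each line. ACER2 is at 0.39 in DMSO and 0.01 in Nutlin-3a, and the SPHK1 and SPHK2 differences of 1.33 and 1.23 in Nutlin-3a shrink to 0.31 and 0 without the divergent library.

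The remaining members gave these differences between guide and control lines. In DMSO they ranged from -0.42 (SPHK1, SE 0.27) to 0.13 (SGPL1, SE 0.06, and CERS6, SE 0.12). Without NTC1 harvest 3 the 3 values were -0.07 (SPHK1), 0.05 (SGPL1) and 0.03 (CERS6), and without the NTC1 line they were 0.15, 0.09 and -0.08. In Nutlin-3a without the divergent library they ranged from -0.06 (ACER3, SE 0.06) to 0.31 (SPHK1, SE 0.22). A test of any difference among the 6 lines in DMSO passed for 0 of 10 members (0.0183% of 16371 genes, edgeR). ACER2 had an unadjusted p of 0.0329 and an adjusted p of 1. Without the divergent library it again passed for 0 members (0.0659% of 16697 genes). ACER2 (0.00888) and CERS6 (0.0407) then had an unadjusted p under 0.05, both with an adjusted p of 0.381. Over all genes 2158 had such an unadjusted p.

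The difference between the guide-line and control-line responses passed for 0 of 10 members (0% of 17264 genes; DESeq2 also 0 of 10), with 0 at an unadjusted p under 0.05. Without the divergent library SPHK1 alone had an unadjusted p under 0.05, at 0.63 (SE 0.26, adjusted p = 0.613, edgeR). For ACER2 the control-line response is part of this difference and had chosen the gene, so its value of -0.44 (SE 0.2) is a description. It was -0.26 (SE 0.14) without NTC1 harvest 3 in DMSO, -0.16 (SE 0.2) without the NTC1 line and -0.75 (SE 0.2) without the NTC2 line.

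Around these enzymes, 51 other sphingolipid genes were listed by role, of which 50 had a row and 43 were tested. In the guide lines 8 rose and 6 fell (median log2 change -0.06), where 17.7% of all genes rose and 16.5% fell. Without the divergent library 9 rose and 12 fell (median -0.02), where 15.9% of all genes rose and 22.7% fell, and 13 were called in the same direction both times. Counts by role below are a description with no test. In guide lines against control lines 0 of them passed in either treatment, and 0 passed for the difference of responses.

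On the way to ceramide, DEGS1, the desaturase that completes new ceramide, fell by 0.64 (SE 0.1, adjusted p = 0.000266, edgeR), from 202 to 249 CPM in the guide lines with DMSO to 81.6 to 173 CPM with Nutlin-3a, where the divergent library was the lowest. Without that library DEGS1 fell by 0.55 (SE 0.04). SPTSSB, a small subunit of serine palmitoyltransferase, fell by 1.25 (adjusted p = 0.00781) but was at no more than 0.177 CPM. ORMDL2, an inhibitor of that enzyme, rose by 0.22 (adjusted p = 0.0134). CERS1, another ceramide synthase, was at 0.93 (adjusted p = 0.0424) with all libraries and at 0.32 (adjusted p = 0.172) without the divergent one. The tested genes of the other ceramidases, ASAH2 and ASAH2B, did not pass.

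Among genes that glycosylate ceramide, 3 of 5 fell, beside 16.5% of all genes, and the same 3 without the divergent library, beside 22.7%. UGT8, which makes galactosylceramide, fell by 1.28 (SE 0.13, adjusted p = 2.74e-06, edgeR). It was at 2.39 to 2.89 CPM in the guide lines with DMSO and at 0.594 to 1.36 CPM with Nutlin-3a, again lowest in the divergent library. Without it UGT8 fell by 1.22 (SE 0.11). ST3GAL5, the GM3 synthase, fell by 0.4 (adjusted p = 0.00261) and B4GALT5, a lactosylceramide synthase, by 0.17 (adjusted p = 0.04). Of 7 genes of glycolipid breakdown 3 rose, beside 17.7% of all genes, among them HEXA, a subunit of lysosomal hexosaminidase, by 0.38 (adjusted p = 0.00168) and PSAP, the saposin precursor, by 0.45 (adjusted p = 0.00863). Without the divergent library 4 of the 7 rose and 1 fell, beside 15.9% and 22.7% of all genes. HEXA and PSAP then rose by 0.27 and 0.28.

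The transfer proteins GLTP and PLEKHA8, which carry glycolipids between membranes, rose by 0.4 (adjusted p = 0.000223, edgeR) and 0.36 (adjusted p = 0.0301). They were 2 of the 4 in their list, where 17.7% of all genes rose. S1P receptors split. S1PR3 rose by 0.52 (SE 0.08, adjusted p = 0.000268), from 10.3 to 12.6 CPM in the guide lines with DMSO to 13.2 to 19.1 CPM with Nutlin-3a (14.6 CPM in the divergent library, and a rise of 0.55 without it), and S1PR5 fell by 0.51 (SE 0.14, adjusted p = 0.0111). S1PR1 and S1PR2 passed only without the divergent library, at -0.12 and -0.44.

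**Figure D5:**
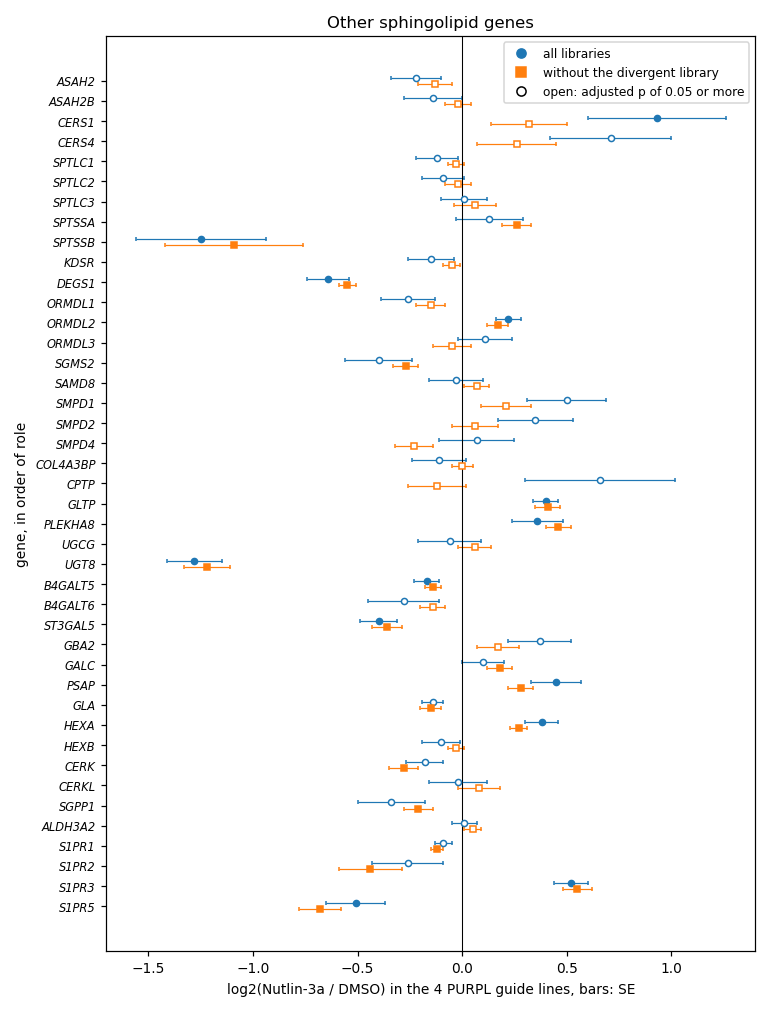
Log2 change after Nutlin-3a in the 4 PURPL guide lines for 42 of the 43 tested sphingolipid genes other than the 10 enzymes, in order of role, with standard errors, for all libraries (circles) and without the divergent library (squares). UGT8 (-1.28) and DEGS1 (-0.64) are lower and S1PR3 (0.52) and GLTP (0.4) higher in both, while CERS1 and CPTP move most when the divergent library is left out.

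The genes whose log2 CPM followed ACER2 most closely over the 12 group means were POLH (Pearson r = 0.998), PRKX (0.998), LINC00649 (0.997), NEU3 (0.997) and RGL1 (0.996), out of 12141 genes with a mean of at least 1 CPM. These points share libraries and fall into 2 clusters, DMSO and Nutlin-3a, and 38 genes had an r of at least 0.99. POLH, a translesion DNA polymerase, rose from a mean of 69.2 to 171 CPM, and NEU3, a membrane sialidase that acts on gangliosides, from 32.8 to 49.9 CPM. Of the other 9 members, CERS2 ran most nearly opposite to ACER2 (r = -0.976) and CERS5 most nearly with it (0.832).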

How the data were processed

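Polyadenylated RNA of 24 libraries was measured. The authors deposited 1 table of estimated counts per gene from RSEM; cutadapt, STAR, RSEM, DESeq2 and hg38 are named in the submitters' processing notes, without versions, and the strand setting of the counting is not given in the sources used here. Between 5.6% and 7.16% of values in a library were not whole, and values were rounded. The 45 rows for the pseudoautosomal part of Y (0.0222% of counts) were added to their X rows, which left 58825 genes.

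Library size and TMM factors gave CPM. edgeR 4.0.16 (R 4.3.3; quasi-likelihood F test, robust, filterByExpr with a minimum count of 10) was fitted to all genes passing the filter, with a mean for each of 12 groups for responses and sums of the 2 harvests of a line for guide comparisons. P-values were adjusted over all genes tested by the Benjamini-Hochberg method, with a threshold of 0.05. Scripts were tested on simulated data. Alternatives were DESeq2 1.42.0, other scaling and filters, removal of each library's GC trend, other units of replication, a harvest block, and leaving out libraries or lines.

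Positions, lengths and GC content came from GENCODE 29 (GRCh38). Of the gene IDs, 47420 matched with and 58552 without their version, so the files use another release. The labels call the harvests biological replicates and do not say how they were kept apart, so p-values measure the spread between these samples. Named were all 10 members, up to 3 called genes per role of the other sphingolipid genes, the 4 check genes, and the 5 genes most like ACER2. The values of 1 gene under that rule are not reported here. The members and lists were chosen with earlier results of these data known.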

Additional observations from a re-analysis of the deposited data

Results flagged for a closer look

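Each of the 10 genes was examined for a library far from the others in 4 groups of libraries (control or guide lines, DMSO or Nutlin-3a), 40 groups of values in all, and 8 held one. Chance alone gives about 1 in 20 groups, but the 40 groups share libraries and are not independent, so the 8 cannot be set against that rate. Of the 8, 6 were the same library, harvest 1 of sg2 with Nutlin-3a, among the 8 guide-line libraries with Nutlin-3a. There ACER3 was at 23.5 CPM (nearest other library 56.9), ASAH1 at 29.1 (nearest 40.1), CERS6 at 45 (nearest 96.5) and SGMS1 at 25.3 (nearest 41.9). In the same library SPHK1 was at 4.72 CPM (nearest 0.918) and SPHK2 at 19.8 CPM (nearest 2.63).

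The other 2 were small in size. CERS2 in harvest 1 of NTC2 with Nutlin-3a was at 146 CPM, while the nearest of the other 3 control-line libraries was at 156 CPM. CERS5 in harvest 1 of sg2 with DMSO was at 32.8 CPM, and the nearest of the other 7 guide-line libraries with DMSO was at 30 CPM. ACER2 and SGPL1 held no such library.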

How the results depend on the processing

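ACER2 rose in the guide lines under all 33 alternatives (2.66 to 2.82 on the log2 scale), and its control-line value ranged from 2.93 to 3.25. Of the 10 members, 4 passed in the guide lines. The count was 2 with no filter, where CERS2 and CERS5 did not pass, 8 with the GC trend removed, 8 with the trend removed and the divergent library left out, and 9 with a replicate block and the trend removed. Leaving out single libraries gave 3 to 8, with 8 (4 higher, 4 lower) without harvest 1 and 8 (3 higher, 5 lower) without harvest 3 of sg2 with Nutlin-3a. Apart from the fit without harvest 1, the share of all genes passing is not given for these alternatives. The counts are therefore a description of the fits and no result about the enzymes as a set. The cause was not tested. ASAH1 changed sign to 0.24 with the GC trend removed, to 0.16 with the divergent library also left out, and to 0.24 with the block and the trend removed. CERS2, CERS5 and SPHK2 each passed under 31 of 33 alternatives.

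In DMSO, guide lines against control lines gave 7 members without the NTC2 line and 0 under the other 24 alternatives. In Nutlin-3a (26 alternatives), for the difference of responses (38) and among lines in DMSO (32) the count stayed at 0. Of 66 correlations between groups of the deviations of same-numbered harvests, 25 exceeded 0.1 (range -0.596 to 0.529). Within a line, between its DMSO and Nutlin-3a harvests, the 6 correlations ran from 0.0042 to 0.369 and 3 exceeded 0.1. These values do not settle whether the numbers pair the samples. With the replicate block alone 4 members passed in the guide lines and the ACER2 control-line value was 3.13. Among lines in DMSO the block gave 0 members. For guide against control lines and the difference of responses it was fitted to single libraries in place of line sums, and 0 members passed. Coding length was taken from GENCODE, an alternative chosen after seeing the data, because the planned protein table was not used here, and ACER2 stayed at place 8 in DMSO under each length.

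The standard error of the guide-line change was 0.36 for SPHK1 and 0.33 for SPHK2 with all libraries, and 0.23 and 0.13 without the divergent library.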
